A study of Mus musculus with 9 samples.

Results

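Cells that carried Foxp3 were compared between 2 cultures: DP cells, which were RORγt+Foxp3+ and came from a Th17 culture, and SPF cells, which were Foxp3+ only and came from a Treg culture. The comparison used the 3 DP and the 3 SPF libraries of a series of 9, and 9126 of 24062 named genes, those above 10 CPM, the counts of a gene scaled to a common library total, in at least 1 of these 6 libraries. All libraries came from naive spleen CD4+ T cells of male RORγtGFP Foxp3RFP mice, F1 animals with a transgenic RORγt GFP reporter and an mRFP knock-in at Foxp3, activated with anti-CD3 and anti-CD28 beads for 3 days without antibodies that block other fates. In its flow cytometry the paper found some Foxp3+ cells in the starting population. The part of such cells in the DP and SPF values was not tested. DP cells were cultured with TGFβ and IL6, and SPF cells with TGFβ, at a higher concentration, and IL2, so the sorted population, RORγt, the second cytokine and the TGFβ dose differed together and cannot be told apart here. The other 3 libraries, SPR cells that were RORγt+ only, were sorted from the Th17 culture. They shared the estimate of spread in the fit, and their values are given beside some genes with no test. The populations are reporter-sorted pools of cultured cells, not cells taken from tissue.

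RORγt is the nuclear receptor that drives the Th17 program of IL17 cytokines, and Foxp3 is the transcription factor that specifies regulatory T cells. Both are induced by TGFβ in newly activated CD4+ T cells. IL6, acting through STAT3, favours RORγt, while IL2, acting through STAT5, favours Foxp3, and cells that hold both proteins are known from the gut.

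Values are CPM in replicates 1, 2 and 3 in that order. DP libraries held 1495152 to 2447057 counts and SPF libraries 2149540 to 2204236, so 1 count was worth 0.409 to 0.669 CPM in DP and 0.454 to 0.465 CPM in SPF. No 2 libraries agreed within sampling noise. Rank correlations over the tested genes, given as a description, were 0.938 to 0.955 among DP libraries, 0.904 to 0.943 among SPF libraries and 0.811 to 0.912 between the groups, and SPF replicate 3 was the SPF library closest to each DP library. The labels give the replicates as biological. The p-values measure the spread between replicates within groups, estimated over all 9 libraries, SPR included. DP and SPR were both sorted from Th17 culture and were fitted as independent, with no block. Of 13 B cell markers 2 passed the 10 CPM filter, and Ms4a1, Cr2 and Ebf1 had no counts. Their summed level was not low, at 507, 209 and 300 CPM in DP against 1523, 1016 and 560 CPM in SPF. Almost all of it was Ighm, at 491, 200 and 292 CPM in DP and 1498, 973 and 539 CPM in SPF. Myeloid markers summed to 12.7 to 21.9 CPM in DP and 18.1 to 50.2 CPM in SPF, with Csf1r, Cd14 and Mpo at 0 counts.

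Foxp3, whose reporter was used for the sort, checks the labels rather than adding a finding. Foxp3 was present in every library of both groups, at 130, 77.2 and 93.6 CPM in DP and 232, 244 and 209 CPM in SPF. Each DP library lay below each SPF library for Foxp3 (log2 fold change −1.26 ± 0.19 SE, edgeR adjusted p = 0.00275), and SPR libraries had 6.38 to 7.33 CPM. In these bulk samples a lower share of Foxp3-expressing cells and less Foxp3 RNA per cell cannot be told apart. The T cell genes Cd3e, Cd4 and Thy1 were present throughout, with Cd4 at 362, 309 and 389 CPM in DP and 593, 651 and 620 CPM in SPF (−0.88 ± 0.17, adjusted p = 0.0078). Of 15 pan T cell markers 0 were higher and 5 lower in DP, beside 7.67% and 6.17% of all genes tested. The 5 decreases became 1 without DP replicate 1, DP replicate 2 or SPF replicate 2, and 9 without SPF replicate 3.

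Of the 9126 genes tested, 1263 differed between DP and SPF at an adjusted p under 0.05 (13.8%): 700 were higher in DP (7.67%) and 563 lower (6.17%). The shares of 7.67% and 6.17% are the background for all list counts given here. More of the large changes were increases. Among the called genes 227 were over 4-fold higher in DP and 98 over 4-fold lower, and 70 against 16 passed 16-fold. The median log2 fold change was 1.40 over the genes called higher, −1.14 over those called lower and 0.01 over all genes tested. Many calls were lost with single libraries left out, which also leaves the fit with less replication. With each of the 9 libraries left out in turn, 452 of the calls (35.8%), 293 higher and 159 lower, were made every time. None of the 1263 calls changed sign in these 9 fits. The count was 554 without SPF replicate 2, 574 without DP replicate 2 and 1821 without SPF replicate 3. It was 968 without SPR replicate 1, which holds no DP or SPF cells, so a lost call need not rest on the library left out. Of those 1821, 1070 were higher and 751 lower, the background for list counts given without SPF replicate 3. Genes described below as kept are among these 452. With DP replicates 2 and 3, the libraries with raised mitochondrial-encoded RNA, both left out, 116 genes were called, 101 higher and 15 lower.

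**Figure D1:**
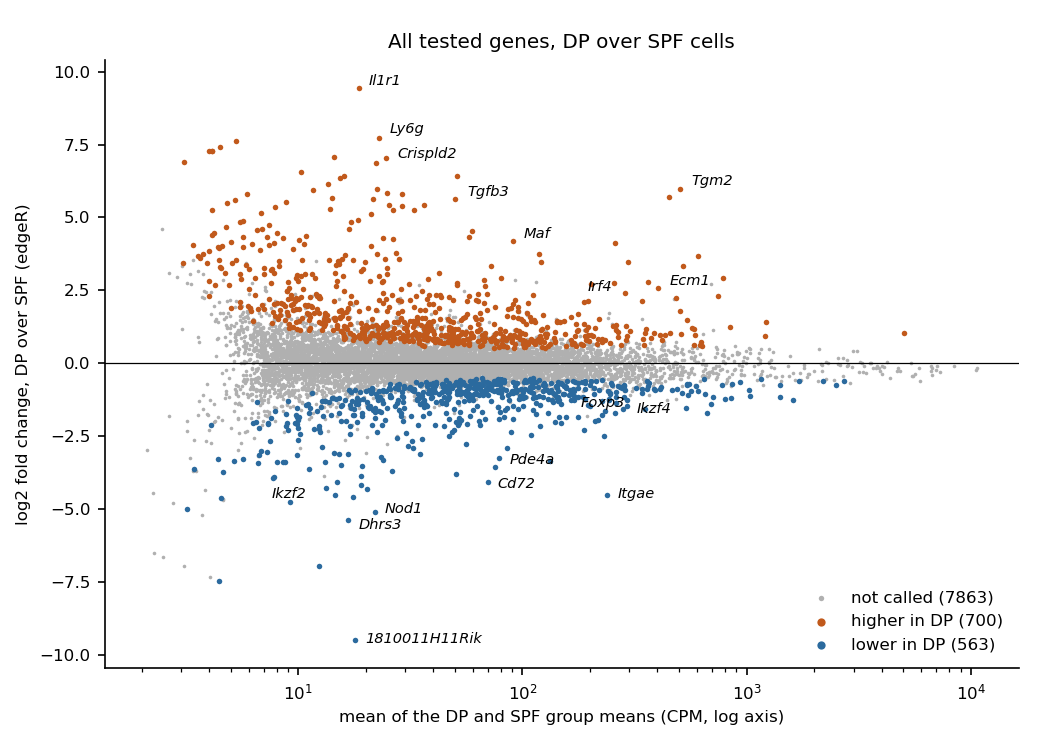
Each point is 1 of the 9126 genes, with the mean of the DP and SPF group means on a log axis in CPM and the log2 fold change of DP over SPF from edgeR. The 700 genes called higher in DP extend up to Il1r1 at 9.45 and the 563 called lower extend down to 1810011H11Rik at −9.48.

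For genes with 3 or fewer counts in the 3 libraries of a group, the fitted change depends on a prior count, so the ratio of pooled CPM is given with its exact 95% interval, which covers counting error only. Where a group had no counts, the ratio is a lower bound against 3 counts over the group. Among the 15 leading increases, Il1r1, the signalling receptor for IL1, had 47.5, 25.3 and 38.8 CPM in DP and no counts in SPF, at least 80.0-fold higher (adjusted p = 0.000215). SPR libraries had 6.03 to 12 CPM, so DP stood highest of the 3 populations for Il1r1. Ly6g, a surface protein best known from neutrophils, had 66.0, 31.1 and 40.1 CPM in DP and 0.454, 0 and 0 CPM in SPF, a ratio of 302 (95% interval 53.7 to 11954, adjusted p = 0.000124), with 8.37 to 18.9 CPM in SPR. Cxcr1, a chemokine receptor also known from neutrophils, had 24.0, 15.5 and 29.4 CPM in DP and 0.454, 0 and 0.465 CPM in SPF (ratio 71.5, interval 19.4 to 597, adjusted p = 0.000701). Of the 3 myeloid markers tested 0 were higher in DP and 1, Itgam, was lower (adjusted p = 0.0444), a call lost without any 1 library other than SPF replicate 3 (adjusted p up to 0.14). The summed myeloid levels given above overlapped between the groups, and the part of myeloid cells in the Ly6g and Cxcr1 values was not tested. Ly6g belongs to a family of similar genes, and the sources used here do not say how reads shared between members were counted.

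Several of the leading increases encode secreted proteins or enzymes. Tgm2, the crosslinking enzyme transglutaminase 2, had 573, 1596 and 806 CPM in DP and 15.4, 1.86 and 28.3 CPM in SPF (5.97 ± 0.80, adjusted p = 0.0013). Its groups did not overlap, although the DP libraries spread widely. Lbp, which encodes the lipopolysaccharide-binding protein and lies beside Tgm2, had 16, 53.9 and 24.7 CPM in DP and 0.454, 0 and 0.465 CPM in SPF (ratio 107, interval 29.1 to 886). Gatm, the first enzyme of creatine synthesis, reached 28.6, 34.3 and 23.4 CPM in DP and 0, 0 and 0.465 CPM in SPF (ratio 193, interval 34.1 to 7644). Serpinf1, the secreted factor PEDF, and Crispld2, a secreted lipopolysaccharide-binding protein, followed the same pattern, as did Lhx6, a LIM homeobox factor, Gipr, the receptor of the gut hormone GIP, and the kinase gene Alpk2. All of them were kept with each library left out. For Serpinf1, Crispld2 and Gipr each DP library also lay below each SPR library, with Gipr at 21.5, 69.1 and 56.2 CPM in DP and 85.8, 195 and 185 CPM in SPR. Serpinb1a, an inhibitor of neutrophil proteases, had 48.4, 112 and 141 CPM in DP and 0.907, 0 and 2.32 CPM in SPF (6.42 ± 1.51, adjusted p = 0.0194), and it lost its call without DP replicate 2, SPF replicate 1 or SPF replicate 2 (adjusted p up to 0.0775).

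**Figure D2:**
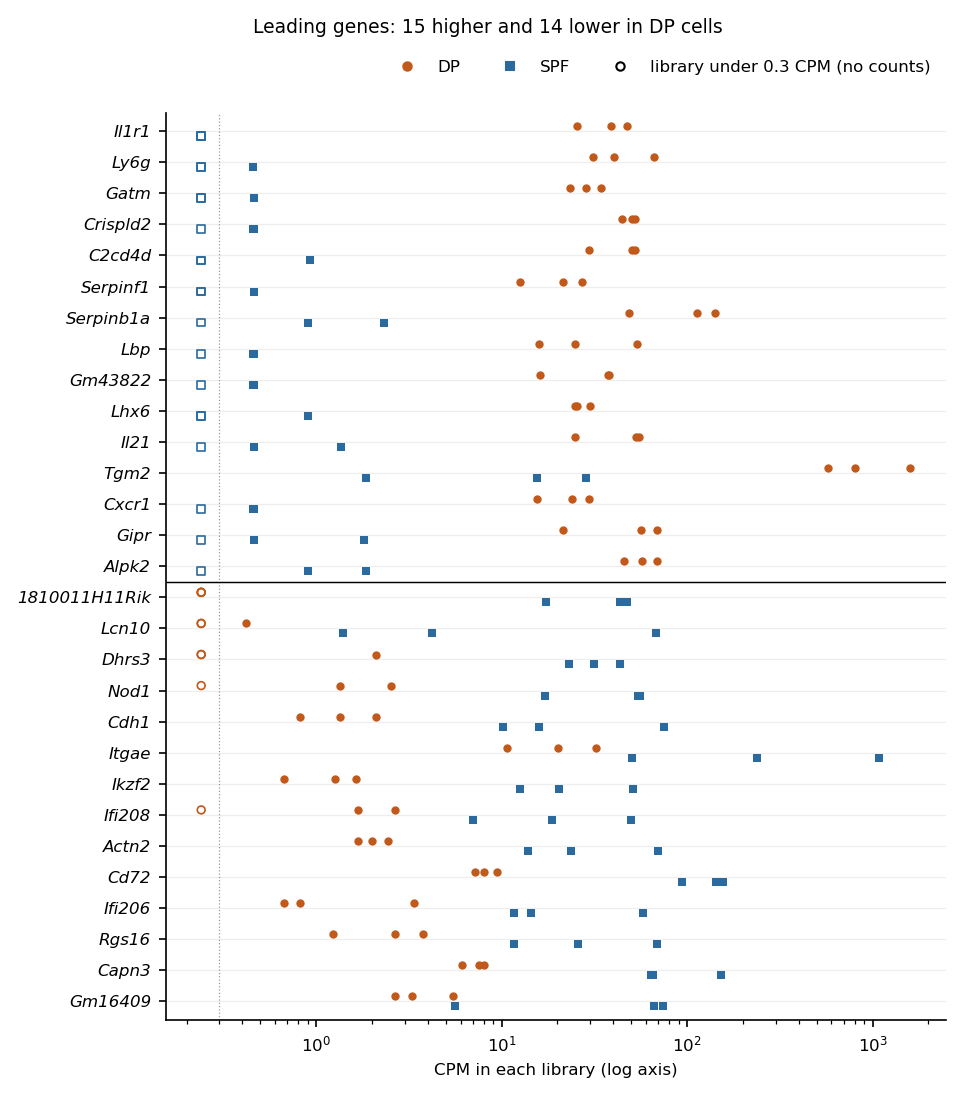
CPM of each library on a log axis for the 15 largest increases and 14 of the 15 largest decreases in DP, with DP as circles and SPF as squares. Open symbols left of the dotted line are libraries with no counts, such as the 3 SPF libraries for Il1r1 and the 3 DP libraries for 1810011H11Rik.

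The leading decreases held adhesion molecules, a Treg transcription factor and a sensor of microbial products. The top gene, 1810011H11Rik, had no counts in DP and 17.2, 43.3 and 47.4 CPM in SPF, at least 75.4-fold lower in DP (adjusted p = 0.000701). Cd72, a lectin-like coreceptor best known from B cells, had 7.15, 9.40 and 8.03 CPM in DP and 157, 143 and 94.3 CPM in SPF (−4.07 ± 0.30, adjusted p = 5.09e-05). Its 6 values formed 2 tight groups. The B cell marker Cd79b was lower in DP as well, at 3.37, 5.31 and 4.01 CPM in DP and 18.6, 26.1 and 13.5 CPM in SPF (−2.25 ± 0.44). Ighm was called lower (adjusted p = 0.0335) and lost the call without DP replicate 2, DP replicate 3, SPF replicate 1 or SPF replicate 2 (adjusted p up to 0.129), and the part of B cells in the Cd72 result was not tested. SPF replicate 3 had the lowest Cd72 and the lowest summed B cell markers of the SPF libraries, the latter 560 CPM against 209 to 507 CPM in DP.

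Itgae encodes CD103, the integrin chain that binds E-cadherin and is induced by TGFβ, and Cdh1 encodes E-cadherin itself. Itgae had 32.4, 10.6 and 20.1 CPM in DP and 1084, 237 and 50.7 CPM in SPF (−4.51 ± 0.93, adjusted p = 0.0109). Cdh1 had 2.10, 0.817 and 1.34 CPM in DP and 75.3, 15.8 and 10.2 CPM in SPF (−4.59 ± 0.87, adjusted p = 0.00735). SPF replicate 1 was the highest and SPF replicate 3 the lowest SPF library for both genes, and neither gene overlapped between the groups. Without DP replicate 2, Itgae fell short of the threshold (adjusted p = 0.0562), while Cdh1 passed it (0.0447). Actn2, an actin crosslinker of muscle, showed the same order among SPF libraries, with 1.68, 2.45 and 2.01 CPM in DP and 69.9, 23.7 and 13.9 CPM in SPF (−4.16 ± 0.65, adjusted p = 0.00306). Lcn10, a lipocalin, rested on SPF replicate 1: it had 0.421, 0 and 0 CPM in DP and 68.1, 4.19 and 1.39 CPM in SPF, and the adjusted p was 0.0241 in all and 0.123 without that library. It was also lost without any 1 DP library.

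Other leading decreases were steadier. Dhrs3, a retinal reductase, Nod1, a cytosolic sensor of peptidoglycan fragments, Rgs16, which shortens G-protein signals, and the protease gene Capn3 were lower in every DP library and kept with each library left out. Capn3 had 7.57, 6.13 and 8.03 CPM in DP and 63.5, 152 and 65.5 CPM in SPF (−3.78 ± 0.51, adjusted p = 0.00137). Gm16409 was less firm, at 5.47, 3.27 and 2.67 CPM in DP and 66.2, 74.0 and 5.58 CPM in SPF (−3.70 ± 0.98, adjusted p = 0.0313), and lost its call without any 1 DP library, SPF replicate 1 or SPF replicate 2 (adjusted p up to 0.123). The interferon-inducible PYHIN genes Ifi206 and Ifi208 were called lower too, and both lost the call without DP replicate 2 (adjusted p 0.0692 and 0.0566), Ifi208 also without DP replicate 1.

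Promoters were read from RefSeq on GRCm38.p6 as the 250 bases before each gene's start, and 18 of the 30 leading genes had one. They were searched on both strands for TAGGTCA, the core of the ROR response element, for TGACTCA, the AP-1 element bound by BATF and JUN proteins, and for the STAT elements TTCCNGGAA and TTCNNNGAA, of which the first is a special case of the second. TAGGTCA was found in Actn2 and Serpinf1 of the leading genes and TGACTCA in Lhx6. These 3 promoters are shown because they hold the only ROR and AP-1 matches among the leading genes, 1 of them in a gene lower in DP. All 3 genes lie on the minus strand, each sequence reads toward the gene, and the capitals mark the match. The Actn2 window is chr13:12340733-12340982, with TAGGTCA starting 171 bases before the gene. The Serpinf1 window is chr11:75422624-75422873, where the capitals, 209 bases before the gene, are the reverse complement of TAGGTCA. The Lhx6 window is chr2:36105409-36105658, with TGACTCA starting 181 bases before the gene.
Actn2: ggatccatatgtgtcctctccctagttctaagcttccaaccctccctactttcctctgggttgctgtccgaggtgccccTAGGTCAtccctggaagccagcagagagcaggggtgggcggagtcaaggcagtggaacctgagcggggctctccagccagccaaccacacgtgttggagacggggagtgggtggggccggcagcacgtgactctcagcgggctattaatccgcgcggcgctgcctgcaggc
Serpinf1: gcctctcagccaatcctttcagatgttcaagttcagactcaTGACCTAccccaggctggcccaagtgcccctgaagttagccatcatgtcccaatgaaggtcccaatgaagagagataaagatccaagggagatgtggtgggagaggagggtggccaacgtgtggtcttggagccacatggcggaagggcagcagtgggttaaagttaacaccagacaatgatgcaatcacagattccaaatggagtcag
Lhx6: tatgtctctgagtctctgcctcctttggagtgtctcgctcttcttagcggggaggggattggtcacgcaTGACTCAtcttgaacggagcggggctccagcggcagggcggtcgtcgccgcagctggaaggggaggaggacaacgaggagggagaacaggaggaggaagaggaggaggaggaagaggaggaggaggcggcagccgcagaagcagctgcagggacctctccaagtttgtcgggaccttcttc
TGACTCA was present in 4.43% of 542 promoters of genes higher in DP, 1.88% of 426 promoters of genes lower in DP and 2.64% of 7004 promoters of all genes tested. TAGGTCA was present in 2.21%, 1.64% and 1.76% of the same promoters, and TTCNNNGAA in 5.90%, 7.28% and 5.77%. These shares are descriptions of short windows with no test, and a match is not a bound site.

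The regulators of the RORγt program formed the list with the highest share of increases. Of 16 tested, 11 were higher in DP and 0 lower, against 7.67% and 6.17% of all genes, and the list's median log2 fold change was 2.04, beside 0.01 over all genes. The list overlaps with the basis of the sort, and 8 of the 11 were kept with each library left out. The list also holds Maf, Ahr and Rora, which the study named from these samples, so its direction is not independent evidence. Maf, the c-MAF factor that supports IL10 and IL21, had 199, 106 and 212 CPM in DP and 8.62, 12.1 and 6.04 CPM in SPF (4.19 ± 0.37, adjusted p = 0.000125). Fosl2, an AP-1 member that restrains parts of the Th17 program in mouse cells, had 56.4, 46.2 and 53.5 CPM in DP and 4.99, 1.40 and 6.04 CPM in SPF (3.57 ± 0.41, adjusted p = 0.000563). Irf4, which opens Th17 loci together with BATF, had 553, 566 and 341 CPM in DP and 71.7, 60.9 and 129 CPM in SPF (2.41 ± 0.36, adjusted p = 0.00266). No DP library overlapped an SPF library for any of these 3 genes. Rora, the second ROR receptor of Th17 cells, Hif1a, the hypoxia-inducible factor, and Etv6, an ETS repressor, rose by 2.13 ± 0.21, 2.05 ± 0.26 and 2.29 ± 0.23. Batf was higher by 0.68 ± 0.17 and lost its call without DP replicate 3 or SPF replicate 2 (adjusted p up to 0.0705). Bhlhe40 had 171, 162 and 177 CPM in DP and 29.0, 87.9 and 187 CPM in SPF and was not called (adjusted p = 0.338).

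Genes of the IL6 and STAT3 response moved mostly one way. Of 22 tested, 13 were higher in DP and 0 lower, the median was 0.87, and 8 of the 13 were kept with each library left out. The list shares members with other lists here, among them Rora, Maf, Hif1a, Batf, Junb and Il21. Socs3, the feedback inhibitor of IL6 signalling, had 1063, 620 and 691 CPM in DP and 152, 258 and 241 CPM in SPF (1.79 ± 0.26, adjusted p = 0.00239). Bcl3, an NF-κB cofactor, had 506, 349 and 390 CPM in DP and 195, 134 and 163 CPM in SPF (1.27 ± 0.19, adjusted p = 0.00253). Cebpd, a C/EBP factor, was at 8.41, 5.72 and 10.7 CPM in DP and at 0 counts in SPF, at least 17.2-fold higher, and its adjusted p of 0.0192 became 0.0512 without DP replicate 3 and also missed the threshold without SPF replicate 2. The receptor chains and STAT3 itself were not called: Stat3 had 557, 464 and 556 CPM in DP and 384, 261 and 315 CPM in SPF (0.65 ± 0.21, adjusted p = 0.0652), and Il6ra had 209, 132 and 89.0 CPM in DP and 116, 250 and 99.4 CPM in SPF (−0.20 ± 0.36). Stat3 did not overlap between groups, whereas Il6ra did, and Stat3 was called by DESeq2.

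The aryl hydrocarbon receptor is a ligand-activated factor of Th17 and some regulatory cells. Of 8 genes of the receptor and its targets tested, 5 were higher in DP and 0 lower, with a median of 2.19, and 4 were kept. Ahr and Il10, both in this list, are genes the study named from these samples. Ahr had 161, 118 and 117 CPM in DP and 13.6, 6.05 and 17.7 CPM in SPF (3.34 ± 0.29, adjusted p = 0.00012). Cyp1b1, a classical target, had 21.0, 10.2 and 22.1 CPM in DP and 0.454, 0.930 and 1.86 CPM in SPF (3.90 ± 0.58, adjusted p = 0.00257), and 1.75 to 3.44 CPM in SPR. Cyp1a1, the other classical target, had 17.7, 23.3 and 40.1 CPM in DP and 1.36, 18.6 and 8.37 CPM in SPF, with SPF replicate 2 inside the DP range (1.42 ± 0.62, adjusted p = 0.15).

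**Figure D3:**
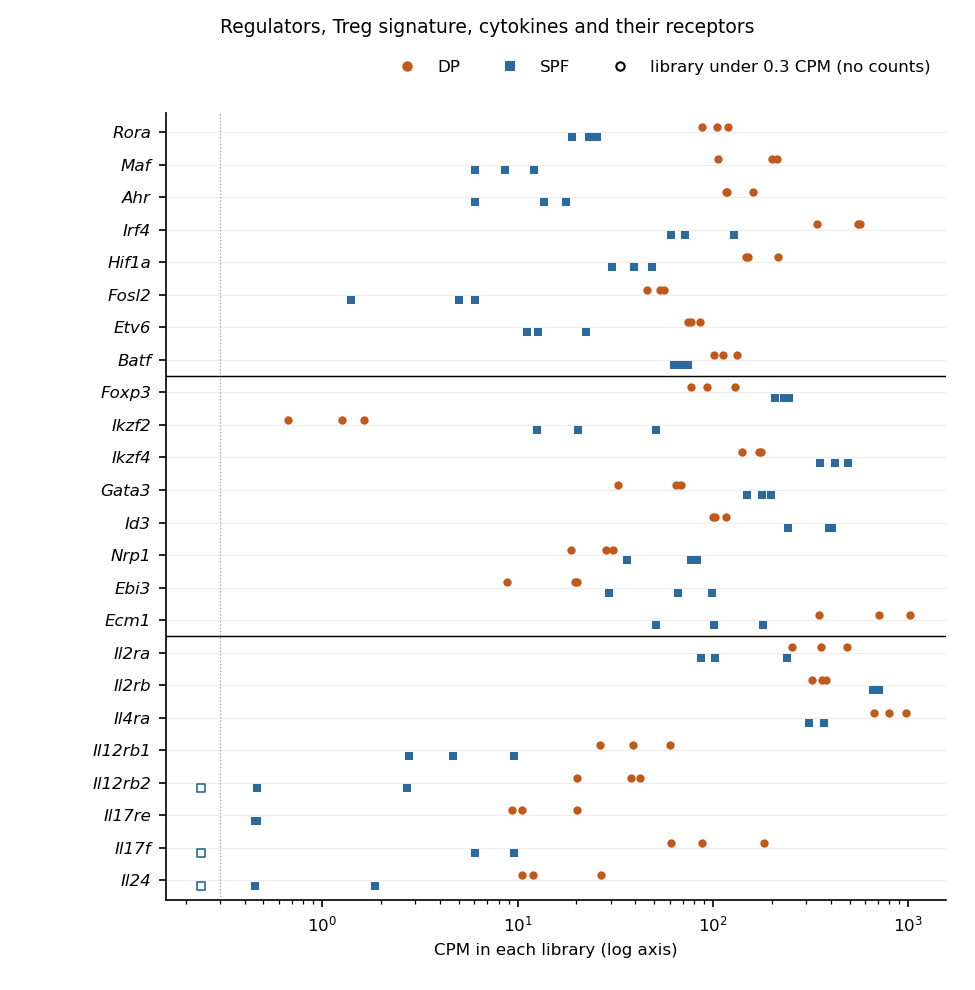
CPM of each library on a log axis for regulators (top), Treg signature genes (middle) and cytokines with their receptors (bottom), DP as circles and SPF as squares. Regulators such as Maf, Ahr and Fosl2 lie right in DP, while Foxp3, Ikzf2, Ikzf4, Gata3 and Id3 lie right in SPF.

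Of 20 cytokine and chemokine genes tested, 7 were higher, 2 lower and 11 not called in DP, with a median of 0.38, and 4 of the 7 increases and 0 of the 2 decreases were kept. The increases Il9, Il21, Il17f, Ccl20, Il10 and Il24 are genes the study named from these samples. The direction of the list is therefore not independent evidence. Il17f, a Th17 effector cytokine, had 61.0, 183 and 87.6 CPM in DP and 9.53, 0 and 6.04 CPM in SPF (4.34 ± 0.73, adjusted p = 0.00424), below the 185, 467 and 194 CPM of SPR. Il21, which acts back on Th17 cells, had 24.8, 52.7 and 54.8 CPM in DP and 1.36, 0 and 0.465 CPM in SPF (5.99 ± 0.56, adjusted p = 0.000154), close to the 37 to 43.5 CPM of SPR. Il10, the regulatory cytokine, had 7.15, 23.7 and 12 CPM in DP and 0.907, 0 and 0.465 CPM in SPF (ratio 31.9, interval 10.6 to 158, adjusted p = 0.0029). Il24, of the same family, rose by 4.28 ± 0.83 (adjusted p = 0.00811). Il17a was under the filter, with 15 counts over the DP libraries and 1 over the SPF libraries, against 141 over SPR. Il4 likewise had 14 counts in DP and 1 in SPF. Il9 had 0.841, 12.3 and 5.35 CPM in DP and 0 counts in SPF, at least 13.7-fold higher (adjusted p = 0.0468), and Ccl20, the ligand of CCR6, had 8.41, 17.2 and 2.01 CPM in DP and 0.907, 0 and 0 CPM in SPF (ratio 33.5, interval 8.90 to 282, adjusted p = 0.0191). DP replicate 2 was the highest DP library for both, and without it their adjusted p values were 0.177 and 0.0761. In SPR, Ccl20 had 22.7, 27.1 and 7.98 CPM. Il9 kept its call only with DP replicate 1 left out, and Ccl20 also lost its call without SPF replicate 2. Ebi3, a subunit of IL27 and IL35, was lower in DP, at 8.83, 19.6 and 20.1 CPM against 29.5, 99.1 and 66.5 CPM in SPF (−2.10 ± 0.48, adjusted p = 0.0184), and lost its call without SPF replicate 2 (0.0747), DP replicate 1 or DP replicate 2. Setting genes at 0 counts to their bounds left the medians of this list, the IL6 list and the receptor list as they were. The bounds of Il9, Cebpd and Il1r1 lay far above these medians, so this is no check on them.

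Of 23 interleukin receptor genes tested, 7 were higher, 1 lower and 15 not called in DP (median 0.37), and 6 of the increases and the decrease were kept. Il12rb2, the inducible chain of the IL12 receptor, had 37.9, 42.1 and 20.1 CPM in DP and 2.72, 0 and 0.465 CPM in SPF (4.84 ± 0.63, adjusted p = 0.00113), and Il12rb1, the chain that also serves the IL23 receptor, rose by 2.81 ± 0.49 (adjusted p = 0.00494). Il17re, the IL17C receptor, had 10.5, 9.40 and 20.1 CPM in DP and 0.454 to 0.465 CPM in SPF (ratio 26.8, interval 8.83 to 133). Il4ra had 967, 792 and 669 CPM in DP and 308, 310 and 372 CPM in SPF (1.22 ± 0.20, adjusted p = 0.00392), and Il21r rose by 1.10 ± 0.22. The IL2 receptor chains went apart. Il2ra, or CD25, had 359, 485 and 253 CPM in DP and 86.7, 102 and 239 CPM in SPF (1.29 ± 0.38, adjusted p = 0.0454), with SPF replicate 3 near the DP range and the call lost without any 1 library other than SPF replicate 3 and SPR replicate 2 (adjusted p up to 0.172). Il2rb, the shared β chain, had 361, 321 and 377 CPM in DP and 657, 669 and 706 CPM in SPF (−1.01 ± 0.19, adjusted p = 0.00708). The IL1 decoy receptor Il1r2, under the filter, had 30 counts over the DP libraries, 4 over SPF and 6 over SPR.

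The Treg signature list leaned to lower values in DP although both populations were Foxp3+. Of 30 genes tested, 3 were higher and 10 lower, with a median of −0.33, and 1 increase and 6 decreases were kept. The list contains Foxp3 and genes the study named from these samples, so its direction is not independent evidence. Ikzf2, or Helios, had 1.26, 1.64 and 0.669 CPM in DP and 51.3, 12.6 and 20.4 CPM in SPF (−4.50 ± 0.71, adjusted p = 0.00328). Ikzf4, or Eos, a Foxp3 partner, had 175, 141 and 171 CPM in DP and 419, 489 and 355 CPM in SPF (−1.45 ± 0.19, adjusted p = 0.00134). Gata3, known for Th2 cells and for Treg cells at barriers, had 68.6, 32.7 and 64.9 CPM in DP and 149, 198 and 178 CPM in SPF (−1.74 ± 0.32, adjusted p = 0.00678). For each of these 3 genes the DP libraries lay below all SPF libraries. Nrp1, a semaphorin receptor, had 28.2, 30.6 and 18.7 CPM in DP and 36.3, 82.8 and 77.1 CPM in SPF (−1.40 ± 0.35, adjusted p = 0.0247), with 4.88 to 11.2 CPM in SPR, and it lost its call without SPF replicate 2 (0.0996) or any DP library. Stat5a, the IL2 signal transducer, was lower by 0.85 (log2 fold change −0.85 ± 0.20, adjusted p = 0.0184) and lost its call without SPF replicate 2 or DP replicate 2. Ecm1, a secreted matrix protein, went the other way with 347, 708 and 1023 CPM in DP and 51.3, 101 and 180 CPM in SPF (2.59 ± 0.50, adjusted p = 0.00795). The suppressive molecules Ctla4 and Entpd1, which encodes CD39, were not called. Ctla4 had 485, 310 and 294 CPM in DP and 295, 219 and 203 CPM in SPF (0.53 ± 0.22), and Entpd1 had 39.97, 18.8 and 34.8 CPM in DP and 62.6, 31.2 and 41.4 CPM in SPF (−0.60 ± 0.38).

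Of 27 TGFβ pathway genes tested, 1 was higher and 7 lower in DP (median −0.30), and the increase and 2 decreases were kept, with 2 decreases called without DP replicate 2. The increase was a ligand. Tgfb3 had 92.5, 95.6 and 108 CPM in DP and 1.36, 0.465 and 3.72 CPM in SPF (5.64 ± 0.38, adjusted p = 3.85e-05), 1 of the 3 smallest adjusted p of all genes. SPR libraries stood higher still for Tgfb3, at 131, 189 and 153 CPM. The major ligand gene Tgfb1 had 174, 180 and 165 CPM in DP and 146, 428 and 342 CPM in SPF and was not called (−0.90 ± 0.32, adjusted p = 0.0854). Among receptors and targets, Tgfbr1 had 50.9, 65.8 and 72.9 CPM in DP and 135, 119 and 96.2 CPM in SPF (−0.96 ± 0.19, adjusted p = 0.0102), and Id3, an inhibitor of E proteins, had 101, 116 and 102 CPM in DP and 395, 407 and 243 CPM in SPF (−1.78 ± 0.24, adjusted p = 0.00146). The inhibitory genes Skil, Smurf2 and Ldlrad4 were lower by smaller amounts, between −0.63 and −1.44, and none was kept. Smad7, the best known feedback inhibitor, was not called (−0.51 ± 0.26).

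In the IL2 and STAT5 response list, 5 of 24 genes were higher and 2 lower in DP (median 0.38), with 2 and 1 kept, and without SPF replicate 3 there were 10 increases. Pim2, a survival kinase, had 142, 154 and 145 CPM in DP and 64.4, 52.1 and 30.7 CPM in SPF (1.51 ± 0.24, adjusted p = 0.00345). Gzmb, the protease granzyme B, had 12.2, 7.76 and 4.68 CPM in DP and 1.81, 0 and 0.465 CPM in SPF (3.29 ± 0.81, adjusted p = 0.0238), and was not called without SPF replicate 2, DP replicate 1 or DP replicate 2 (adjusted p up to 0.0744).

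Among costimulatory and inhibitory receptors, 5 of 18 were higher in DP and 0 lower (median 0.72), and 3 were kept. Cd86, a costimulatory ligand, had 20.6, 32.7 and 30.1 CPM in DP and 0.907, 1.40 and 4.65 CPM in SPF (3.50 ± 0.51, adjusted p = 0.00221). Cd101, a receptor that restrains T cell signals, had 153, 115 and 136 CPM in DP and 72.1, 61.9 and 43.2 CPM in SPF (1.11 ± 0.21, adjusted p = 0.00678). Icos rose by 1.52 ± 0.29. In the TNF receptor family 3 of 17 were higher and 3 lower, with only Tnfrsf13b kept, the receptor TACI, at 235, 294 and 203 CPM in DP and 86.7, 107 and 126 CPM in SPF (1.12 ± 0.23, adjusted p = 0.0109). Cd40 was lower in DP, at 30.7, 18.4 and 30.1 CPM against 29.0, 60.01 and 65.5 CPM in SPF, where SPF replicate 1 overlapped the DP libraries (−1.04 ± 0.31, adjusted p = 0.0487), and it kept its call only with SPF replicate 1 left out (adjusted p 0.18 without DP replicate 2).

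Of 21 homing receptors and their regulators, 1 was higher and 3 lower in DP (median −0.32), shares of which only the decreases exceeded the background, and no decrease was called without DP replicate 2. Ccr6, the receptor used by Th17 cells, had 11.4, 6.95 and 10.0 CPM in DP and 1.36, 14.9 and 6.51 CPM in SPF, which overlapped (0.23 ± 0.63).

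Regulators of follicular helper and naive cells moved both ways, 4 higher and 4 lower of 21, with 2 of each kept. Pou2af1, the coactivator OBF1, had 30.7, 18.8 and 32.1 CPM in DP and 0, 0.465 and 1.39 CPM in SPF (5.28 ± 0.68, adjusted p = 0.00106). Foxp1, a quiescence factor, had 288, 174 and 241 CPM in DP and 553, 378 and 417 CPM in SPF (−1.01 ± 0.21, adjusted p = 0.0122). Bcl6, the defining factor of follicular helper cells, had 21.5, 20.02 and 21.4 CPM in DP and 25.4, 13.5 and 6.51 CPM in SPF and was not called (0.40 ± 0.40). Of 9 Th1 genes tested, 2 were higher, Il12rb2 among them. Of 7 Th2 genes, Il4ra and Nfil3, which was not kept, were higher and Gata3 lower. Klrd1, or CD94, a receptor of natural killer cells, had 19.8, 40.9 and 36.8 CPM in DP and 1.81, 0.930 and 0.929 CPM in SPF (4.60 ± 0.50, adjusted p = 0.000342). Its neighbour Klre1 rose as well, by 4.34 ± 0.65. The markers of CD8 and natural killer cells together summed to 26.8 to 41.2 CPM in DP and 20.4 to 62.8 CPM in SPF. These sums contain Klre1, at 15.1, 18.4 and 8.03 CPM in DP, and Fcgr3, at 18.1, 42.3 and 1.39 CPM in SPF. The part of natural killer cells in the Klrd1 and Klre1 values was not tested. Serpinb6b, an inhibitor of granule proteases, was lower, at 7.99, 13.1 and 19.4 CPM in DP and 49.0, 40.5 and 42.3 CPM in SPF (−1.80 ± 0.34, adjusted p = 0.00715).

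Nuclear receptors and retinoid enzymes contributed 3 increases, Rora and Vdr among them, and 3 decreases of 19 tested. Vdr was not kept and all 3 decreases were. Rarg, a retinoic acid receptor, had 10.9, 5.72 and 8.03 CPM in DP and 19.5, 54.0 and 66.5 CPM in SPF (−2.57 ± 0.44, adjusted p = 0.00476). Dhrs3 had 2.10, 0 and 0 CPM in DP and 23.1, 31.6 and 43.2 CPM in SPF (−5.37 ± 0.72, adjusted p = 0.0013). Nr3c1, the glucocorticoid receptor, was at 90.4, 74.0 and 56.9 CPM in DP and 141, 120 and 132 CPM in SPF (−0.89 ± 0.17, adjusted p = 0.00811). Of 16 genes of adenosine, ATP and cAMP handling, 0 were higher and 3 lower, and 1 was kept. That gene, Pde4a, a phosphodiesterase that breaks down cAMP, had 14.7, 11.4 and 22.1 CPM in DP and 126, 152 and 146 CPM in SPF (−3.24 ± 0.28, adjusted p = 0.000115), 2 groups far apart.

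Of 24 glycolysis and hypoxia genes 4 were higher in DP and 0 lower (median 0.28), 1 of them kept. Egln3, the oxygen-sensing prolyl hydroxylase PHD3, had 531, 655 and 494 CPM in DP and 101, 102 and 158 CPM in SPF (2.15 ± 0.22, adjusted p = 0.000211). Of 27 genes of the unfolded protein and amino acid response 5 were higher and 1 lower (median 0.49). Asns, asparagine synthetase, was the one kept, with 25.2, 52.3 and 9.36 CPM in DP and 2.27, 2.79 and 1.86 CPM in SPF (3.58 ± 0.74, adjusted p = 0.011). The increases in these lists numbered 1 and 1 without SPF replicate 2 and 7 and 10 without SPF replicate 3. Of 82 ribosomal protein genes 1 was higher and 1 lower, under the background share, with a median of −0.15. Of 11 BCL2 family genes 1 was lower, Bbc3, and it was not kept.

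**Figure D4:**
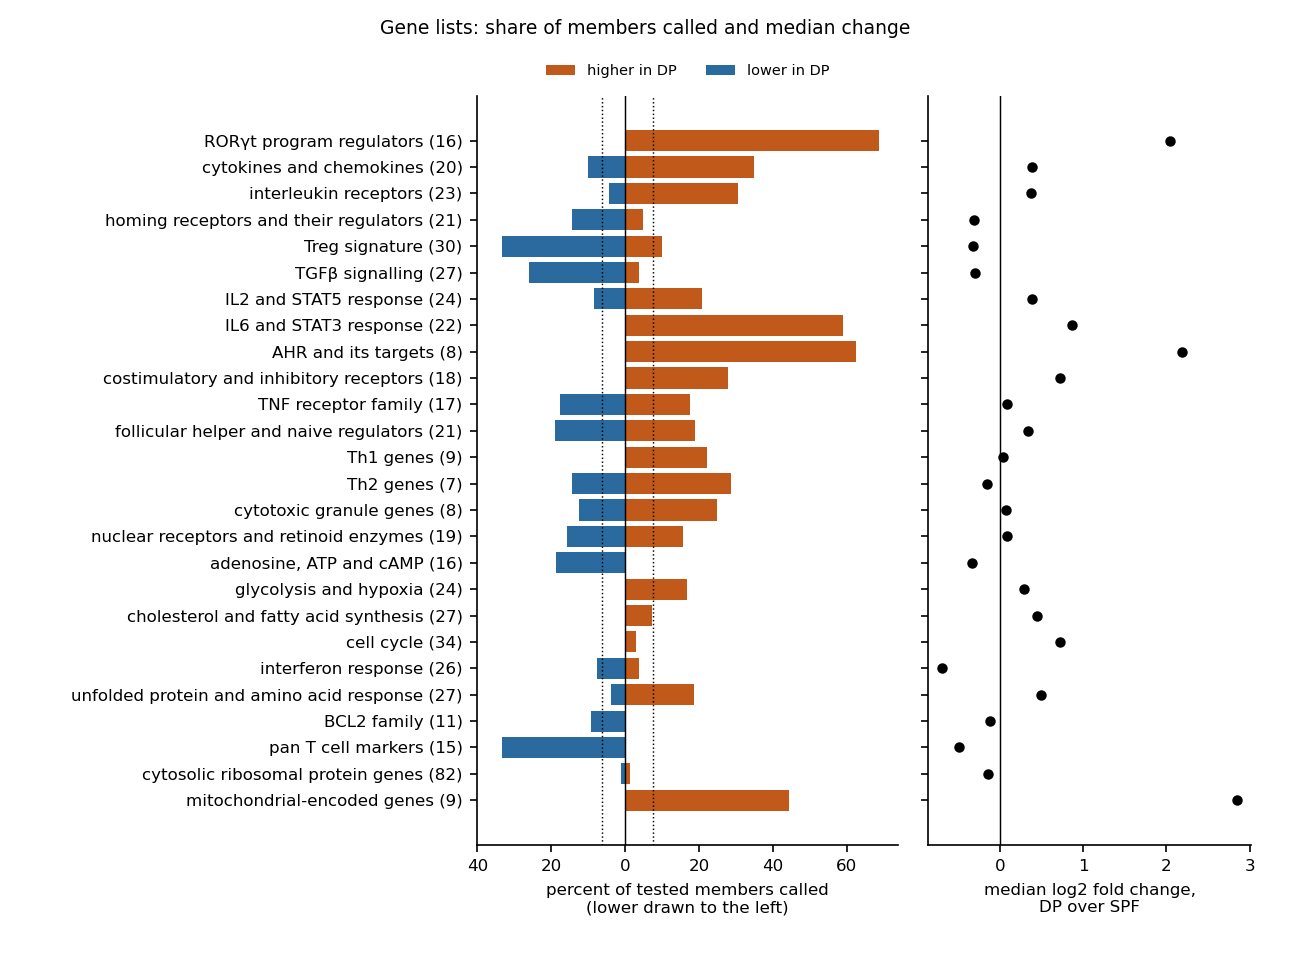
Lists with at least 7 tested members are drawn. Left, the percent of each list's tested members (number in parentheses) called higher in DP (to the right) or lower (to the left), with dotted lines at the shares over all genes, 7.67% and 6.17%. Right, the list's median log2 fold change of DP over SPF: among these lists it was highest for mitochondrial-encoded genes (2.84), whose calls rest on DP replicates 2 and 3, and lowest for the interferon response (−0.70).

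Some programs differed more among SPF libraries than between the groups. Interferon response genes summed to 8127, 5500 and 5521 CPM in DP and 11150, 3508 and 4132 CPM in SPF, so SPF replicate 1 was the highest and SPF replicates 2 and 3 the lowest of the 6. Of 26 tested, 1 was higher and 2 lower in DP, shares under and near the 7.67% and 6.17% of all genes, with a median of −0.70. Without SPF replicate 1, 6 were higher, and without SPF replicate 3, 5 were lower. Gbp2, a guanylate-binding protein induced by interferon, was the called increase, with 1894, 543 and 938 CPM in DP and 215, 18.1 and 20.9 CPM in SPF (3.67 ± 0.90, adjusted p = 0.0231). It was not called without DP replicate 1 or SPF replicate 2 (adjusted p up to 0.0723). Ly6a, or Sca-1, had 1301, 1398 and 932 CPM in DP and 493, 11.2 and 20.4 CPM in SPF. Its groups did not overlap, yet it was called only with SPF replicate 1 left out among the libraries (adjusted p = 1.4e-05, against 0.0969 in all).

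Cell cycle and lipid synthesis genes set SPF replicate 3 apart. The cell cycle list summed to 3894, 5665 and 3362 CPM in DP and 1867, 2387 and 4695 CPM in SPF, and the cholesterol and fatty acid synthesis list to 2699, 3282 and 2462 CPM in DP and 1074, 1293 and 3429 CPM in SPF. For both lists SPF replicate 3 lay inside or above the DP range and the other SPF libraries below it. Of 34 cell cycle genes 1 was higher in DP, Mcm6, a subunit of the replication helicase, with 190, 268 and 173 CPM in DP and 68.1, 59.5 and 99.4 CPM in SPF (1.41 ± 0.24, adjusted p = 0.00445). That 1 call was under the 7.67% share of all genes. Without SPF replicate 3, 19 were higher, in a fit that called 1070 of all 9126 genes higher in place of 700. Mki67, the proliferation marker Ki-67, had 121, 171 and 69.6 CPM in DP and 16.8, 39.1 and 121 CPM in SPF (0.97 ± 0.60, adjusted p = 0.295), and 2.02 without that library (adjusted p = 0.0225). Of 27 lipid synthesis genes 2 were higher, near the 7.67% of all genes, Fasn among them, and neither was kept. Without SPF replicate 3 there were 16, among them Sqle, squalene epoxidase, which had 47.5, 74.4 and 46.1 CPM in DP and 7.26, 9.77 and 57.6 CPM in SPF. The part of cell division in the other results was not tested.

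Mitochondrial-encoded RNA was 0.0542%, 0.287% and 0.521% of counts in DP and 0.0563%, 0.0206% and 0.0576% in SPF. DP replicate 1 was thus within the SPF range and DP replicates 2 and 3 above it. Of 9 mitochondrial-encoded genes 4 were higher (median 2.84), none without DP replicate 2 or without DP replicate 3, and 8 without DP replicate 1. With these genes out of the fit 1254 genes were called in place of 1263.

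**Figure D5:**
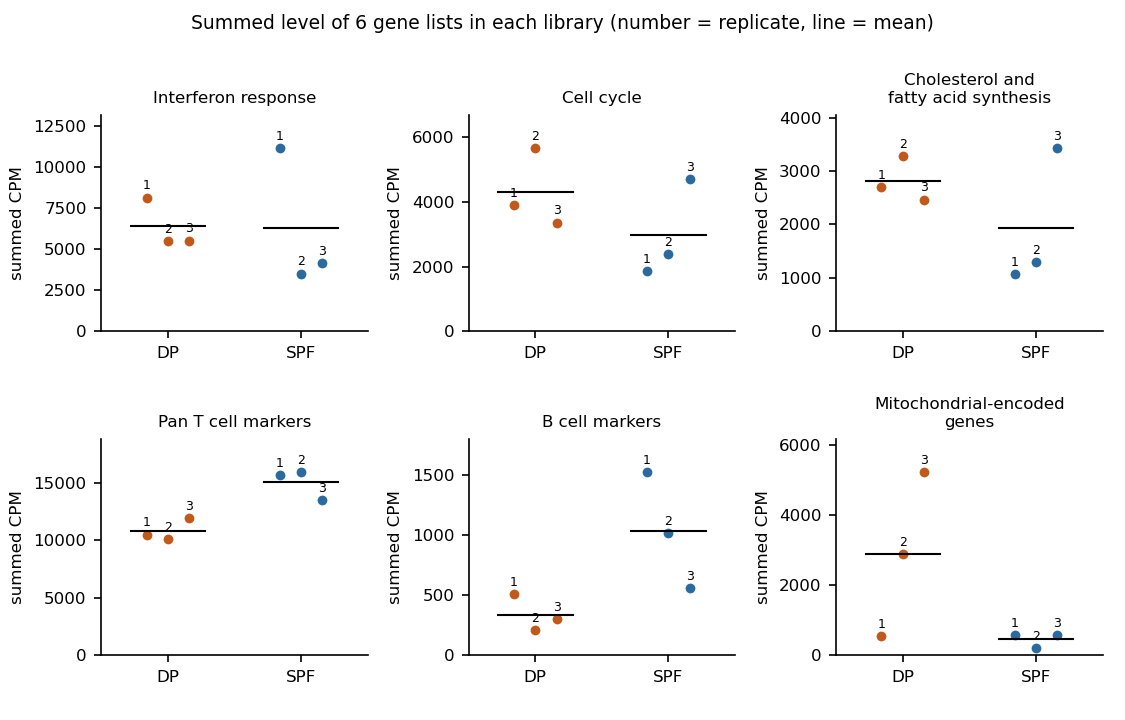
Summed CPM of 6 gene lists in each library, DP left and SPF right, with the replicate number at each point and the mean as a line. SPF replicate 1 is highest for the interferon response, SPF replicate 3 is the one SPF library at the DP level for the cell cycle and lipid synthesis, and DP replicates 2 and 3 stand above all others for mitochondrial-encoded genes.

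The 10 smallest adjusted p belonged to 9 genes higher and 1 lower in DP. Beside Crispld2, Tgfb3, Cd72 and C2cd4d they included Adarb1, Cldnd1, Flot1, Gm17767 and Mgll. C2cd4d, a C2 domain gene, had 52.2, 29.4 and 50.2 CPM in DP and 0, 0.930 and 0 CPM in SPF. Adarb1, the RNA-editing enzyme ADAR2, had 128, 119 and 95.6 CPM in DP and 5.90, 1.86 and 6.04 CPM in SPF (4.55 ± 0.31, adjusted p = 3.88e-05). Flot1, the membrane scaffold flotillin 1, had 383, 285 and 305 CPM in DP and 69.9, 71.6 and 66.9 CPM in SPF (2.15 ± 0.16, adjusted p = 6.17e-05). Cldnd1, a claudin-like membrane protein, rose by 2.76 ± 0.20 and Mgll, monoglyceride lipase, by 4.30 ± 0.37. The noncoding gene Gm17767 had 69.0, 51.9 and 49.5 CPM in DP and 2.27, 0 and 1.39 CPM in SPF. Flot1 and Cldnd1 had over 50 CPM in every SPF library, so these differences did not rest on near-absent SPF counts.

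Genes beside Il21 were higher in DP together, a pattern chosen after the values were seen. Within 100 kb of Il21 (chromosome 3, 37222759 to 37232636) 3 other genes were tested and all 3 were higher in DP. Gm43822, of unclassified type and just before the start of Il21, had 37.9, 37.6 and 16.1 CPM in DP and 0.454, 0 and 0.465 CPM in SPF (ratio 106, interval 29.0 to 881). Cetn4, a centrin, had 26.9, 34.7 and 14.7 CPM in DP and 2.27, 1.40 and 7.90 CPM in SPF (2.66 ± 0.51, adjusted p = 0.00811). Bbs12, a Bardet-Biedl syndrome gene, had 27.8, 31.1 and 20.7 CPM in DP and 7.71, 7.91 and 5.11 CPM in SPF (1.87 ± 0.26, adjusted p = 0.00162). Il21 and these 3 genes were kept with each library left out.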

How the data were processed

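The authors sequenced 3′-end (MARS-seq) libraries on a NextSeq 500 and made gene counts with cutadapt, STAR, SAMtools and HTSeq on mm10, per the submitters' processing notes. The sources used here give no tool versions, annotation, strand setting or use of molecular identifiers. The values were deposited as raw counts. An unnamed line equal to each library's total was left out. Here CPM are counts over library totals. Genes above 10 CPM in at least 1 of the 6 DP and SPF libraries were fitted with edgeR 4.0.16 (R 4.3.3): TMM factors, quasi-likelihood test, all 9 libraries sharing 1 spread, contrast DP minus SPF, Benjamini-Hochberg adjustment over 9126 genes, called under 0.05. The fit was tested on simulated data.

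Equal replicate numbers were not used as pairs: deviations of same-numbered libraries correlated at 0.128, −0.012 and −0.154, and DP and SPF came from separate cultures. Named genes were Foxp3, genes the study names, the 15 largest increases and 15 largest decreases called, without overlap between groups and averaging 20 CPM or more in the higher one, the 10 smallest adjusted p, and up to 4 called members of each list with others a sentence needed. Some genes that the rule names are not reported here. The comparison, members and lists were chosen with earlier results of these data known, so the directions of the lists are not independent evidence. Alternatives were DESeq2 1.42.0, other scalings, filters and samples, the replicate block, and leaving out each library. Intervals cover counting error only, at 95%, and the floor is 3 counts over a group.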

Additional observations from a re-analysis of the deposited data

How the results depend on the processing

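Counts of genes called in DP against SPF moved by over 1.5 times under several changes. Calls that were also over 2-fold were 816, of which 488 were higher and 328 lower. Without a low-count filter there were 2137 calls, 1286 higher and 851 lower in DP, in place of 1263, 700 and 563. With only the 6 DP and SPF libraries and no block there were 852 calls, 472 higher and 380 lower, and 66.3% of the 1263 were among them. Adding the replicate block to those 6 libraries gave 423, 247 and 176, while the replicate block over all 9 libraries gave 1397. Leaving out each library gave 554 to 1821 calls, 329 to 1070 higher and 191 to 751 lower, the lowest totals without SPF replicate 2 and DP replicate 2 and the highest without SPF replicate 3. With DP replicates 2 and 3 left out together there were 116, 101 and 15. DESeq2 called 1586, RLE factors 1270, and library totals alone 1259, of which 811 were higher and 448 lower (64.4% higher against 55.4%), with the median over all genes moved to 0.0769. Of the values of single named genes under all settings, 3020 stayed on their side of the threshold, 525 lost the call, 44 gained one and 2 changed sign while called in one of the fits: with DP replicates 2 and 3 left out, mt-Cytb was at −0.32 and Rpl22l1 at −0.54. The cause of these shifts was not tested. Depth limits low genes: 3 counts over a group set the floor, and Il17a, Il4 and Il1r2 were under the filter.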

Other observations

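Other neighbouring genes were called in the same direction, a listing made after the values were seen and given with no test. Gatm, AA467197 and Slc30a4 were higher in DP along chromosome 2, with AA467197 at 45.0, 80.5 and 66.2 CPM in DP and 0.454, 1.40 and 2.79 CPM in SPF (5.27 ± 0.51, edgeR adjusted p = 0.00019). Slc30a4, a zinc transporter, was at 19.8, 23.7 and 13.4 CPM in DP and 2.27, 1.40 and 7.43 CPM in SPF, and lost its call without any 1 of 4 libraries (adjusted p up to 0.0907, without DP replicate 2). On chromosome 6, Gabarapl1, Klre1, Klrd1, Magohb and Ybx3 were higher in DP, and Magohb lost its call without DP replicate 1, DP replicate 2, SPF replicate 1 or SPF replicate 2 (adjusted p up to 0.133). Tesk1, Cd72 and Sit1 were lower in DP on chromosome 4, and Il2rb, C1qtnf6 and Rac2 on chromosome 15. The call of Tesk1 was not kept with each library left out.

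Gapdh, the glycolytic enzyme often used as a reference gene, had 523, 47.0 and 32.1 CPM in DP and 541, 26.1 and 648 CPM in SPF, with 760, 50.4 and 793 CPM in SPR. The 4 libraries under 100 CPM were DP replicates 2 and 3, SPF replicate 2 and SPR replicate 2. Ldha, the enzyme further down the same pathway, had 2045, 3064 and 2394 CPM in DP and 1325, 1605 and 2170 CPM in SPF, with no such split. Rpl22l1 had 9.68, 163 and 94.97 CPM in DP and 19.5, 6.51 and 13.5 CPM in SPF, high in the same 2 DP libraries that had raised mitochondrial-encoded RNA.

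Lif, a cytokine of the IL6 family, had 253, 201 and 188 CPM in DP and 13.2, 20.9 and 200 CPM in SPF and was not called (1.40 ± 0.79, adjusted p = 0.254), with SPF replicate 3 inside the DP range as for the cell cycle genes. Tnf had 32.0, 29.0 and 26.8 CPM in DP and 14.1, 96.3 and 114 CPM in SPF, where SPF replicate 1 was the lowest of the 6 (−1.43 ± 0.54, adjusted p = 0.103). Cxcr3, a chemokine receptor of Th1 cells, had 2.94, 1.23 and 0.669 CPM in DP and 73.5, 0 and 0 CPM in SPF, all but absent outside SPF replicate 1.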
